A study of Mus musculus with 4 samples.

Results

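A set of 8 genes of the red cell lineage were followed in cells recovered from the airspaces of the lung by bronchoalveolar lavage (BALF cells), to ask whether red cell RNA moved between the samples with Gata1, a transcription factor of red cell precursors. The genes were chosen by name: Hba-a1, Hba-a2 and Hbb-bt, which encode chains of adult hemoglobin, Alas2, the erythroid enzyme that starts heme synthesis, Slc4a1 and Epb42, the anion exchanger band 3 and its partner protein 4.2 of the red cell membrane, Klf1, a transcription factor of erythroid precursors, and Ahsp, a chaperone of free alpha-globin. Of the 8 genes, 7 were matched by their accession to 1 probe each among 39429 probes of the array, which named 20832 genes in all, and no probe was matched to Ahsp. The comparison of the genotypes is the one by which these genes were chosen to be described, so their differences are given without a test.

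The cells came from 2 samples of wild-type mice and 2 of S1pr2-/- mice, which lack a receptor for sphingosine-1-phosphate through targeted disruption of the gene. All had been given bleomycin, a drug that injures the lung, at 0.035 U/g by the intraperitoneal route with 2 injections per week, and RNA was taken on day 22. The mice were 8 to 10 weeks old when bleomycin was begun. They were littermates from heterozygous breeding on a mixed strain background with a single backcross to C57BL/6J. No saline sample was analysed here. The labels call the cells alveolar macrophages, whereas the RNA was that of all BALF cells, and whether an array held RNA of 1 mouse or of several is not given in the sources used here. All 4 arrays lay on 1 slide. The level of a probe is given as log2 of its signal over the 75th percentile of the array, so that 0 stands for that percentile. A signal was set to no less than 0.01 of the percentile, a floor at -6.64 on this scale.

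The probe of the targeted gene gave log2 levels of -0.13 and -0.16 in the wild-type samples but 2.67 and 2.54 in those labelled S1pr2-/-. This was 2.75 higher (SE 0.072, limma adjusted p = 0.333), against the label, and the position of this probe with respect to the deleted sequence is not given in the sources used here. Each direction below follows the labels, and would turn if the labels of the genotypes were exchanged. All 10 alveolar macrophage markers with a probe were well above background on all 4 arrays, with a summed signal between 482 and 533 times the 75th percentile.

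Mature red cells of mammals have no nucleus and make no RNA, and young red cells (reticulocytes) still carry globin and Alas2 messages in large amounts from their precursors. GATA1, with FOG1, TAL1, LMO2 and KLF1, switches on globin, heme and membrane genes in erythroblasts. GATA1 is also used by megakaryocytes, mast cells, basophils and eosinophils, so its message alone does not name a cell type. Lavage fluid can hold red cells from small bleeds, and alveolar macrophages take up red cells and break down their heme.

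Sequence upstream of the start site was taken for 6 of the 8 genes from RefSeq (GRCm38.p6), as the 250 bases before the annotated start, and 5 windows are shown, those of the globins and Alas2, which were lowest and highest on the same arrays, and that of Klf1, the transcription factor among the 8 genes. The GATA motif was searched on both strands as the letters GATA with A or T before them and A or G after them, and a match is in capitals below. Where the match is on the other strand, the printed letters are its reverse complement. The windows lie at chr11:32283422-32283671 on the plus strand for Hba-a1, at chr11:32296242-32296491 on the plus strand for Hba-a2, at chr7:103813924-103814173 on the minus strand for Hbb-bt, at chrX:150547167-150547416 on the plus strand for Alas2 and at chr8:84901732-84901981 on the plus strand for Klf1.
Hba-a1: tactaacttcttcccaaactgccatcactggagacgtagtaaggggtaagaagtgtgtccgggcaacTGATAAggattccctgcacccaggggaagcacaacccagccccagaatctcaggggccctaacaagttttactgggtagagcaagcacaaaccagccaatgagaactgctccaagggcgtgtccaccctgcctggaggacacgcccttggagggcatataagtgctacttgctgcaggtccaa
Hba-a2: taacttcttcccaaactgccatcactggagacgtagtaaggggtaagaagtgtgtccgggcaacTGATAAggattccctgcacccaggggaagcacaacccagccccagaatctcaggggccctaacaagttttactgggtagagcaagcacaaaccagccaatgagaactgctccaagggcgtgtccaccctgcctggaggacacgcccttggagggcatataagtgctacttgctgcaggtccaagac
Hbb-bt: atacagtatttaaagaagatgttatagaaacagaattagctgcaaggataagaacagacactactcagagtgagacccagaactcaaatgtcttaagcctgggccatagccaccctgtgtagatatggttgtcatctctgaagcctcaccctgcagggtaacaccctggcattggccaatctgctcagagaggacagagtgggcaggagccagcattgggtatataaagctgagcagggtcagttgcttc
Alas2: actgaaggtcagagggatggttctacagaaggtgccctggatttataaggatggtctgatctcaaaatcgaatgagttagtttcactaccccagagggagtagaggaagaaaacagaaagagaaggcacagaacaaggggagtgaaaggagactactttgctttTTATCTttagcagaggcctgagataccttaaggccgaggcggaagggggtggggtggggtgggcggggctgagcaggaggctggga
Klf1: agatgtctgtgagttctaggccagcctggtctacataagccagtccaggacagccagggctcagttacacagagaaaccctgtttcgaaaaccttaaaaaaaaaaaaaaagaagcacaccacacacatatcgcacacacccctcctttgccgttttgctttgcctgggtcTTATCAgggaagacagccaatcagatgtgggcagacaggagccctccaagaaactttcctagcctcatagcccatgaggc

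A GATA motif was found in 5 of these 6 windows, against 26.5% of 32851 windows of the same length. It lay 183 bases before the start in Hba-a1, 186 in Hba-a2, 86 in Alas2, 80 in Klf1 and, in the window of Epb42 at chr2:121036878-121037127 on the minus strand, 226. The alpha-globin windows shared an unbroken run of 247 bases, with starts offset by 3 bases, so they count as 1 sequence rather than as separate examples. The window of Hbb-bt held no GATA motif of these letters. A motif of KLF factors, CCNCNCCC on either strand, was found in 45.9% of all windows and in 2 of the 6, once in Hbb-bt at 107 bases before the start and at 4 overlapping or neighbouring places in Alas2. It did not overlap a GATA motif in either gene. The window of Gata1 itself held no GATA motif and 3 KLF motifs. A match of letters is a description of the sequence and not a bound site.

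The globin genes had strong signals on all 4 arrays and differed little between the genotypes. Hba-a2 lay at log2 levels of 6.22 and 5.63 in the wild-type pair and at 6.13 and 6.26 in the pair labelled S1pr2-/-. In linear terms its signal was 74.4, 49.4, 70.1 and 76.8 times the 75th percentile in the same order. Wild-type replicate 2 was the low array and the other three lay close together, so that the groups overlapped. The mean was 5.92 ± 0.42 (SD, n = 2) for wild-type samples against 6.20 ± 0.09 (SD, n = 2) for S1pr2-/- samples, a log2 difference of 0.28 or 1.21-fold.

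Hba-a1 was also lowest on wild-type replicate 2, with 4.24 and 3.48 in the wild-type pair and 4.27 and 4.46 in the pair labelled S1pr2-/-. The means were 3.86 ± 0.54 and 4.36 ± 0.13 (SD, n = 2 each), a difference of 0.50 or 1.41-fold. Both S1pr2-/- arrays lay above both wild-type arrays, but the nearest pair was 0.03 apart, less than the median SD of 0.04 to 0.05 between repeated spots of a probe on 1 array. Hbb-bt lay at 3.17 and 2.66 in the wild-type pair and at 3.15 and 3.46 in the pair labelled S1pr2-/-. Its means were 2.91 ± 0.36 and 3.30 ± 0.22 (SD, n = 2 each), 0.39 or 1.31-fold apart, and its groups overlapped. The transcripts of Hba-a1 and Hba-a2 are nearly identical, as are those of the adult beta-globins, so a probe of one may also read the other.

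Alas2, whose message marks cells that were making heme for hemoglobin, was, like the globins, lowest on wild-type replicate 2 and highest on S1pr2-/- replicate 2. Its log2 levels were -1.80 and -2.47 in the wild-type pair and -1.78 and -1.53 in the pair labelled S1pr2-/-. The means were -2.14 ± 0.47 and -1.65 ± 0.18 (SD, n = 2 each), a difference of 0.48 or 1.40-fold, and the nearest pair of arrays across the genotypes was 0.02 apart.

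**Figure D1:**
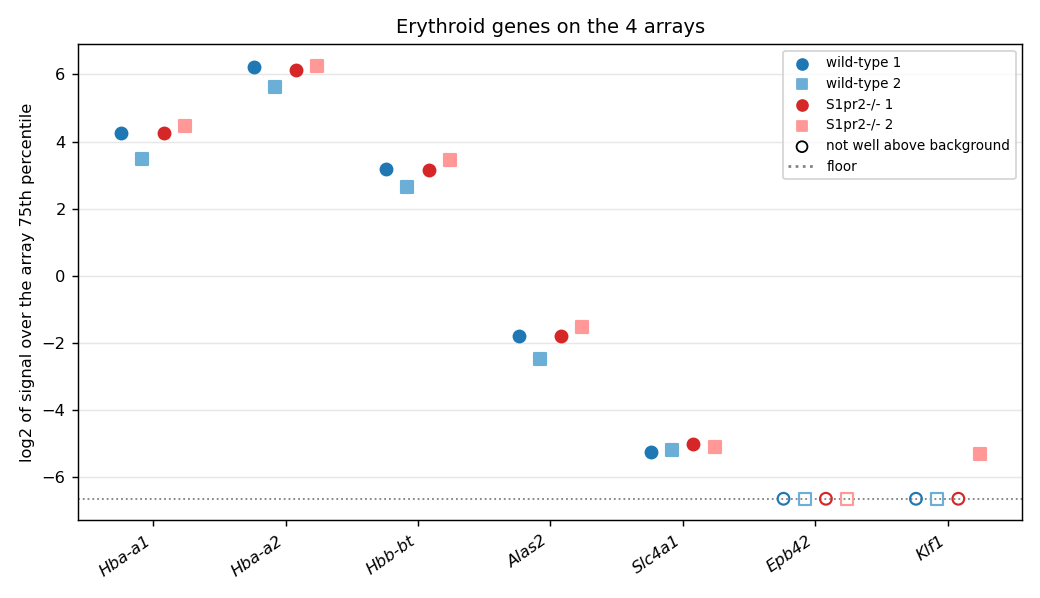
Log2 level (signal over the array's 75th percentile) of the 7 genes with a probe, 1 point per array, with circles for replicate 1 and squares for replicate 2. Wild-type replicate 2 was the lowest array for Hba-a1, Hba-a2, Hbb-bt and Alas2, and open symbols at the floor show that Epb42 had no signal well above background.

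The membrane genes gave little or no signal. Slc4a1 was well above background on all 4 arrays at levels close to the floor, -5.25 and -5.20 in the wild-type pair and -5.01 and -5.12 in the pair labelled S1pr2-/-. The difference between the means of -5.22 ± 0.04 and -5.06 ± 0.07 (SD, n = 2 each) was 0.16 or 1.12-fold, and the groups did not overlap. Unlike the globins, it did not have its lowest level on wild-type replicate 2. For Epb42, no array gave a signal well above background.

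Klf1 was well above background on 1 of the 4 arrays. It was at the floor on both wild-type arrays and on S1pr2-/- replicate 1, and at -5.30 on S1pr2-/- replicate 2. Since both wild-type arrays and 1 of the S1pr2-/- arrays were at the floor, no fold is given. On the floored scale the difference of the means was 0.67, and it was 0.13 under normexp background correction and 0 with the percentile over detected probes or without S1pr2-/- replicate 2. That array also had the most probes with signal on it alone, 941 of 39359 (2.39%), against 280 to 410 (0.711% to 1.04%) on each of the other arrays.

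Of the 5 genes with a tested probe, all had a higher mean on the arrays labelled S1pr2-/-, with a median log2 difference of 0.39, and 3 of them (Hba-a1, Alas2 and Slc4a1) had both S1pr2-/- arrays above both wild-type arrays. Over all 27161 probes tested, 20.0% had both S1pr2-/- arrays above both wild-type arrays, 13074 were higher and 13754 lower by their means, and the median difference was -0.003. None of the 5 reached 2-fold in either direction, which 0.180% of tested probes did upward and 1.24% downward by the mean alone. For the globins and Alas2, the size of the difference rested on wild-type replicate 2. Without it, the median over the 5 genes was 0.13, the difference of Hba-a2 was -0.02, and those of Hba-a1, Hbb-bt and Alas2 were 0.12, 0.13 and 0.15, while that of Slc4a1 was 0.18. Without wild-type replicate 1, the median was 0.65 and that of Hba-a1 was 0.88.

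For the globins and Alas2, the gap within the wild-type pair was thus wider than the gap between the genotypes. Wild-type replicate 1 exceeded replicate 2 by 0.76 for Hba-a1, 0.67 for Alas2, 0.59 for Hba-a2 and 0.51 for Hbb-bt on the log2 scale, against a median absolute gap of 0.12 over all tested probes. A gap at least as wide as that of Hba-a1, in either direction, was seen for 4.03% of tested probes, and the corresponding shares were 5.26% for Alas2, 6.53% for Hba-a2 and 8.37% for Hbb-bt. For Slc4a1 the gap was -0.05, which 76.1% of tested probes reached or passed. In such bulk samples, fewer cells of a type and less RNA per cell cannot be told apart.

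**Figure D2:**
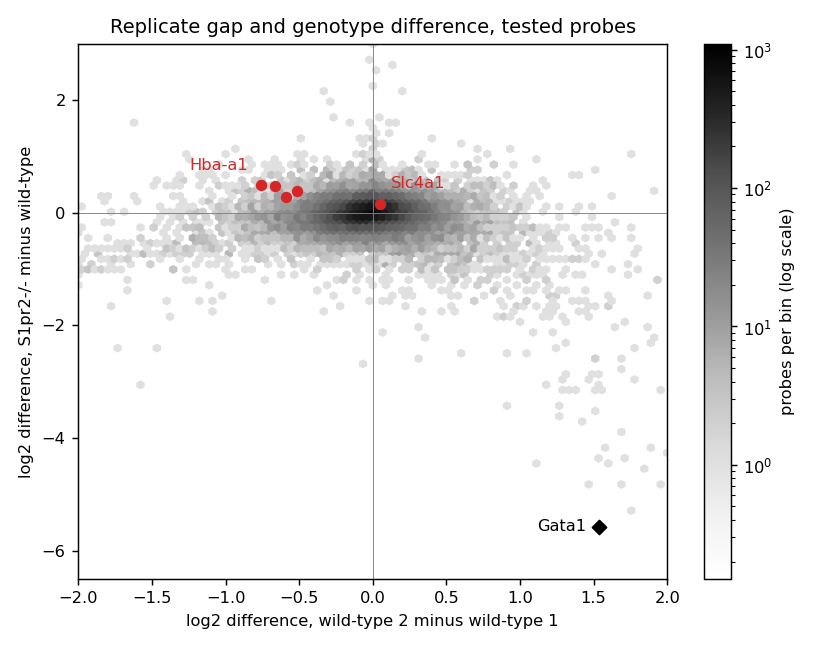
Log2 difference between the wild-type arrays (replicate 2 minus replicate 1, horizontal) against the log2 difference between genotypes (S1pr2-/- minus wild-type, vertical) for 27161 tested probes, shaded by the number of probes per bin on a log scale, of which 124 fall outside the axes. The points of Hba-a1, Hba-a2, Hbb-bt and Alas2 (red) lie left of 0 horizontally and between 0.28 and 0.50 vertically, Slc4a1 lies near the centre, and Gata1 (black) lies at the lower right.

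Gata1 differed in the opposite direction and by far more. Its probe was well above background on all 4 arrays, at -1.13 and 0.41 in the wild-type pair and at -6.45 and -5.44 in the pair labelled S1pr2-/-. The wild-type levels were thus far above both others, and the difference was -5.58 (SE 0.717), or 48.0-fold lower, with an unadjusted p of 0.00319 and an adjusted p of 0.509 from limma. The levels labelled S1pr2-/- lay near the floor of -6.64, so the size of this difference depends on how dim signal is treated. It was -4.11 under normexp background correction and -4.88 with the percentile over detected probes. No probe passed an adjusted p of 0.05 (0 of 27161, 0%), while 9.58% had an unadjusted p under 0.05 and 0.633% were also past 2-fold lower and 0.107% past 2-fold higher. An exact permutation test on 2 arrays against 2 cannot give a p below 0.333.

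Within the wild-type pair, Gata1 and the globins also ran in opposite order. Gata1 was highest on wild-type replicate 2, the array on which Hba-a1, Hba-a2, Hbb-bt and Alas2 were lowest. Within the pair labelled S1pr2-/- these genes ran in the same order as Gata1, higher on replicate 2. Replicate 2 minus replicate 1 was 1.00 for Gata1, 0.19 for Hba-a1, 0.13 for Hba-a2, 0.31 for Hbb-bt and 0.25 for Alas2. For Slc4a1 it was -0.10. The summed signal of the 7 probes, most of it that of Hba-a2, was 103 and 67.1 times the 75th percentile in the wild-type pair. It was 98.6 and 110 in the pair labelled S1pr2-/-. The sum of S1pr2-/- replicate 1 was thus below that of wild-type replicate 1 and above that of wild-type replicate 2. The part of red cells in the Gata1 difference was not tested. Across the 4 arrays the Pearson correlation of Gata1 with the mean profile of the 5 tested genes was -0.785, a description over 4 points that share 1 slide. Under each of 14 other settings Gata1 stayed lower on the arrays labelled S1pr2-/-, by 17.3-fold to 81.7-fold, with adjusted p between 0.337 and 0.682 from limma. Some of these settings, such as no floor or a changed filter, left the Gata1 difference itself as it was.

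**Figure D3:**
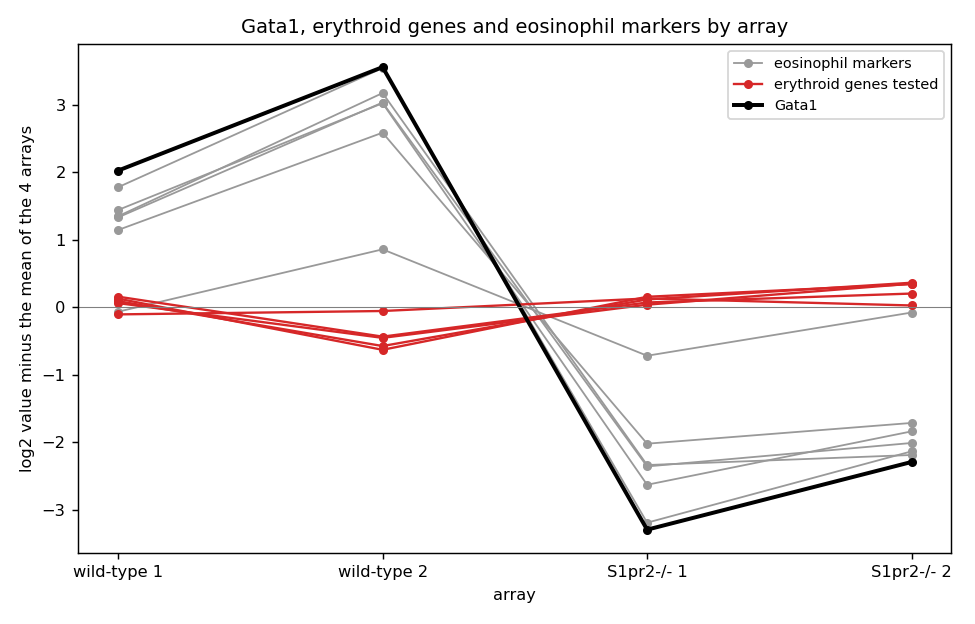
Log2 level of each gene minus its own mean over the 4 arrays, for Gata1 (black), the 5 tested erythroid genes (red) and 6 eosinophil markers (grey). Gata1 and the eosinophil markers peak on wild-type replicate 2. They are low on the arrays labelled S1pr2-/-, except Ear6, which on S1pr2-/- replicate 2 is nearly level with wild-type replicate 1. The erythroid genes stay within 1 log2 unit, and 4 of the 5 are lowest on wild-type replicate 2.

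The other globins were higher by their means, but few of them had the same pattern over the arrays. Of 9 genes, 8 had a probe and 6 were tested, and all 6 had a higher mean on the arrays labelled S1pr2-/-, with a median of 0.29 and adjusted p between 0.601 and 0.933 from limma. Among the 6, Hbb-bh2 was at the floor on both wild-type arrays and on S1pr2-/- replicate 2. Its difference of 0.07, like that of Hbb-y below, is thus taken against the floor. Both S1pr2-/- arrays lay above both wild-type arrays for 1 of the 6, against 20.0% of all tested probes. Under normexp background correction, and likewise without wild-type replicate 2, 4 were higher and 2 lower. Without S1pr2-/- replicate 1, 4 were higher and 1 was lower. The beta-globins Hbb-b2 and Hbb-bs, named after their values were seen, also had their lowest level on wild-type replicate 2. Hbb-b2 lay at 1.05, 0.43, 0.96 and 1.31 and Hbb-bs at -0.74, -1.56, -0.97 and -0.52, in the order wild-type 1 and 2 and S1pr2-/- 1 and 2. Each differed by 0.40 (limma adjusted p = 0.668 and 0.722), and without wild-type replicate 2 the difference of Hbb-bs was -0.01. Hbb-bs and Hbb-bt make up one haplotype of the adult beta-globin locus of mouse strains and Hbb-b1 and Hbb-b2 the other, and no probe was matched to Hbb-b1.

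The embryonic globin Hbb-y was at the floor on both wild-type arrays and lay at -4.24 and -6.18 on the arrays labelled S1pr2-/-, and a second probe of the gene was at the floor on all 4. Its difference of 1.43 (limma adjusted p = 0.601) is therefore taken against the floor, and it was 0.47 without S1pr2-/- replicate 1, 2.40 without S1pr2-/- replicate 2 and 0.51 with the percentile over detected probes. The smallest difference was that of Hbq1b, a theta-globin, at 0.04. Hba-x, the embryonic alpha-like chain, and Hbq1a were well above background on none of the 4 arrays.

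All 12 genes of heme synthesis had a tested probe, 9 higher and 3 lower on the arrays labelled S1pr2-/-, with a median of 0.10. Alas1, which starts heme synthesis in all cells and is not particular to red cells, was among the 3 pathway genes named for a bright probe and had the widest difference of this list. It lay at 5.27 and 5.20 in the wild-type pair and at 6.30 and 5.93 in the pair labelled S1pr2-/-, a difference of 0.88 (SE 0.157, limma adjusted p = 0.509), and its dimmer probe differed by 1.11. Fech, which inserts iron into the heme ring, had the lowest difference, -0.23 (limma adjusted p = 0.542). The probes of Slc25a37, the mitochondrial iron importer of erythroblasts, named after its values were seen, disagreed at 0.19 and -0.30.

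Most genes of the red cell membrane were too dim to compare. Of 18 genes, all had a probe and 8 were tested, 4 higher and 3 lower, with a median of 0.02. The widest difference was that of Ank1, which ties the membrane to the spectrin skeleton, at 0.46 (limma adjusted p = 0.579), and the lowest that of Icam4, an adhesion molecule of red cells, at -0.03. Rhag, Sptb, Add2, Tmod1 and Cldn13, which encode a carrier of the Rh complex, beta-spectrin and other parts of the membrane skeleton and surface, were well above background on none of the 4 arrays. Mpp1, a membrane scaffold protein also made in leukocytes, was also among those 3 and differed by 0.16.

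Several dim red cell genes had signal on S1pr2-/- replicate 2 alone. Of 96 probes of the 8 genes and of the other erythroid genes listed, 6 (6.25%) were well above background on that array only, against 0 or 1 on each other array and against 2.39% of all probes on it. Among them were Klf1, Rhd, Xk and Trim58, the latter 3 named after their values were seen. Rhd, a Rhesus antigen, lay at -5.11 there and Xk, a membrane transport protein, at -5.64, and each of these probes was at the floor on the other 3 arrays. Trim58, an E3 ligase of late erythroblasts, was at the floor there too. The same array had the highest Alas2 and Hba-a1 levels, and its Gata1 level of -5.44 was far below both wild-type arrays.

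**Figure D4:**
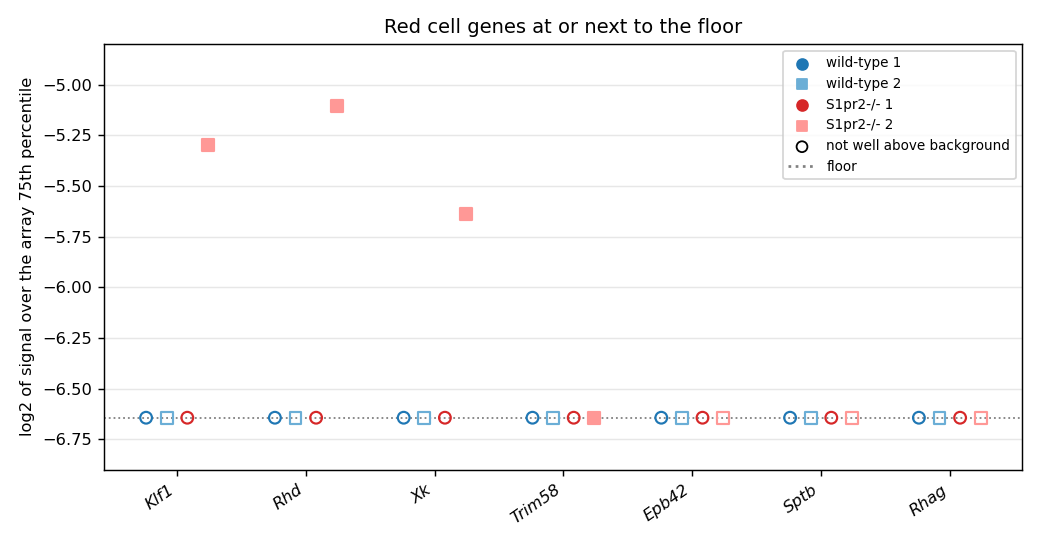
Log2 level (signal over the array's 75th percentile) of 7 red cell genes near the floor (dotted line), 1 probe per gene and 1 point per array, with filled points well above background. Klf1, Rhd, Xk and Trim58 have a filled point on S1pr2-/- replicate 2 only, and Epb42, Sptb and Rhag have none.

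Among the erythroid transcription factors and the erythropoietin receptor, the genes did not share a direction. All 13 had a probe and 12 were tested, 7 higher and 5 lower, with a median of 0.02, and 5 had an unadjusted p under 0.05 from limma, beside 9.58% of all tested probes, with 0 at an adjusted p under 0.05. Gfi1b, a repressor shared by erythroid and megakaryocyte cells, lay at -2.83 and -1.59 in the wild-type pair and at -4.28 and -3.57 in the pair labelled S1pr2-/-, a difference of -1.71 (SE 0.561, limma adjusted p = 0.521). Myb, a factor of blood progenitors, lay at -2.66 and -1.89 and at -3.65 and -3.89, a difference of -1.49 (SE 0.319, limma adjusted p = 0.509). Both were highest on wild-type replicate 2, as Gata1 was and unlike the globins.

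Epor, the receptor for erythropoietin, had the widest difference upward. It lay at 0.67 and 0.62 in the wild-type pair and at 1.25 and 1.21 in the pair labelled S1pr2-/-, a difference of 0.59 (SE 0.059, limma adjusted p = 0.509), with replicates far closer than the genotypes. Other factors, named after their values were seen, were mixed. Nfe2, which drives globin genes and platelet formation, differed by -0.91 (limma adjusted p = 0.518), Lmo2 by 0.30 (limma adjusted p = 0.509) and Zfpm1, which encodes FOG1, by 0.01 (limma adjusted p = 0.981). Tal1 lay near the floor at -5.93 and -6.24 in wild-type and at -5.52 and -6.03 in S1pr2-/- samples, so its groups overlapped. Sox6, which silences embryonic globin, was well above background on none of the 4 arrays.

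Enzymes of red cells and genes of reticulocyte maturation had small differences, more of them downward. Of 15 genes, 12 were tested, 4 higher and 8 lower, with a median of -0.05. The lowest difference was that of Car2, carbonic anhydrase 2, at -0.30 (limma adjusted p = 0.729). Bnip3l, which clears mitochondria from reticulocytes and is made in many cells, was the remaining one and differed by 0.04. Trim10 was well above background on none of the 4 arrays.

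Over these 5 pathway lists together, 50 of 67 genes were tested, 30 higher and 19 lower, with a median of 0.04 beside -0.003 over all tested probes. Both S1pr2-/- arrays lay above both wild-type arrays for 12 of them and below for 7, against 20.0% and 21.8% of all tested probes. An unadjusted p under 0.05 from limma was reached by 7 genes, beside 9.58% of all tested probes, and an adjusted p under 0.05 by 0. Past 2-fold by the mean were Gfi1b and Myb downward and, against the floor, Hbb-y upward.

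**Figure D5:**
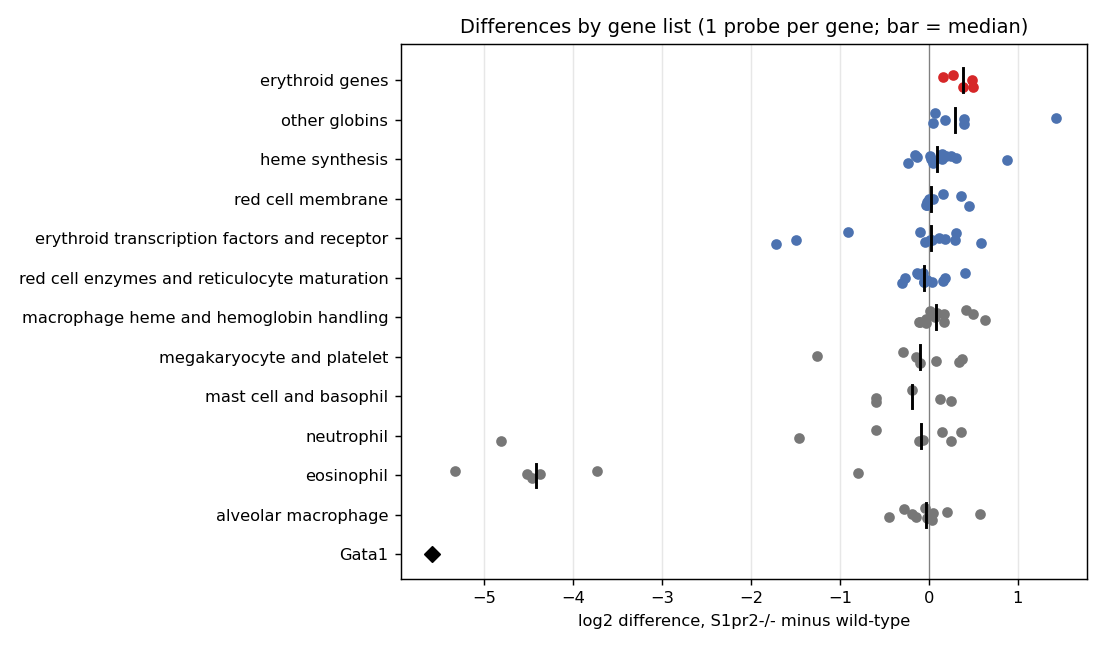
Log2 difference (S1pr2-/- minus wild-type) of each tested gene, 1 probe per gene, by list, with a black bar at the median of the list (erythroid genes red, pathway lists blue, other lists grey, Gata1 as a black diamond). The erythroid genes lie between 0.16 and 0.50, the eosinophil markers between -5.32 and -0.79, and Gata1 at -5.58.

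Genes with which alveolar macrophages take up hemoglobin and handle its iron showed small differences. Of 13 genes, 12 were tested, 8 higher and 4 lower, with a median of 0.08. Slc11a1, an iron and metal transporter of phagosomes, had the widest difference at 0.64 (limma adjusted p = 0.524) and Ftl1, ferritin light chain, the lowest at -0.11 (limma adjusted p = 0.626). Hmox1, the heme-degrading enzyme, named after its values were seen, lay at 3.61 and 3.42 in the wild-type pair and at 3.15 and 3.82 in the pair labelled S1pr2-/-, so its groups overlapped. Cd163, the hemoglobin scavenger receptor, was well above background on none of the 4 arrays.

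Markers of the other cell types that use Gata1 were read in the same way. All 6 tested eosinophil markers were lower on both arrays labelled S1pr2-/-, with a median of -4.42, beside 21.8% of all tested probes lower on both. Of these markers, 5 were past 2-fold lower with an unadjusted p under 0.05 from limma, beside 0.633% of all tested probes, and 0 had an adjusted p under 0.05. Prg2, the major basic protein of eosinophil granules, lay at -0.07 and 1.69 in the wild-type pair and at -5.04 and -3.99 in the pair labelled S1pr2-/-, a difference of -5.32 (limma adjusted p = 0.509). Epx, Ccr3, Cebpe and Il5ra differed by -4.52, -4.47, -4.37 and -3.73 and Ear6 by -0.79, with limma adjusted p between 0.509 and 0.616, and Epx was at the floor on S1pr2-/- replicate 1. The summed signal of the list was 9.29 and 25.3 times the 75th percentile in the wild-type pair and 2.63 and 4.03 in the pair labelled S1pr2-/-, in the same order over the 4 arrays as Gata1. Most of this sum was that of Cebpe and Ear6 in the wild-type pair. In the pair labelled S1pr2-/- most of it was that of Ear6 alone, at 2.23 and 3.48.

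Megakaryocyte and platelet markers were tested for 7 of 12 genes, 3 higher and 4 lower, with a median of -0.10 and a summed signal between 4.95 and 6.68. Itgb3, an integrin that macrophages also make, differed by -1.25 (limma adjusted p = 0.548) and Pf4 by 0.38 (limma adjusted p = 0.701), and Gp1ba, Gp6 and Gp9 of the platelet surface were well above background on none of the 4 arrays. Mast cell and basophil markers were tested for 5 of 12 genes, 2 higher and 3 lower, with a median of -0.19 and a summed signal between 0.731 and 0.967. Hdc, which makes histamine, differed by -0.60 and Prss34 by 0.25 (both limma adjusted p = 0.519), and Cma1, Fcer1a, Gata2, Mcpt8 and Ms4a2 were well above background on none of the 4 arrays. Neutrophil markers, which do not rest on Gata1, were mixed, 3 higher and 5 lower of 8 tested, with Retnlg at -4.81, S100a9 at -1.46 and Ltf at 0.36. The difference of S100a9 rested on S1pr2-/- replicate 2, without which it was -0.47. The part of any of these cell types in the Gata1 difference was not tested.

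The genes with the most similar pattern to the 5 tested erythroid genes were sought among 7547 named probes. These were well above background on all 4 arrays, and their range over the arrays had a lower limit but no upper limit. By Pearson correlation over the 4 arrays, Noxo1 (0.9995), Pdxk-ps (0.9991), Lsm6 (0.9986), Ins1 (0.998) and Hoga1 (0.9979) came first, and 147 of the probes had a correlation of at least 0.95. Other red cell genes did not come first, although Hbb-b2 (0.983) and Hbb-bs (0.962) had the same shape.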

How the data were processed

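Cy3-labeled cRNA of BALF cells was hybridized to 4 one-color Agilent whole mouse genome arrays, 2 per genotype. The authors deposited the intensity of each spot as Feature Extraction wrote it, with background already corrected in the processed signal (version 10.7.3.1 per the labels, 11.0.1.1 per the file headers), and a table of log2 values relative to the wild-type mean of each probe. Apart from a constant per array, these lay within 0.01 of log2 of the processed signal over the 75th percentile, minus that mean, for 100% of 39359 probes. Here each processed intensity was scaled to the 75th percentile of its array, taken over the 43020 spots that are not controls (2489 to 2817 intensity units), set to at least 0.01 and log2-transformed. Outlier-flagged spots (115 to 273 per array) were left out, 0 spots were saturated, and repeated spots were averaged.

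Gene symbols came from matching accessions to a RefSeq table (GRCm38.p6), which named 69.6% of 39429 probes. Where a gene had several probes, the tested probe with the highest mean was used. The 27161 probes detected well above background in both samples of either genotype were tested with limma 3.58.1 in R 4.3.3 (lmFit, eBayes, Benjamini-Hochberg adjustment over all of them), and the script was tested on simulated data. With 2 arrays per genotype the number of arrays limits the precision, and p-values measure the spread between these RNA samples. The lists were described by counts and medians. Replicate numbers only name the samples (correlation of same-numbered deviations 0.187). The genes and lists were chosen with earlier results of these data known. Named were all 8 genes, Gata1, S1pr2 and, from each list, genes past 2-fold, the largest and smallest difference, the markers not detected and the 3 brightest pathway genes. Others are said to have been named after their values were seen. Some genes of this rule are not reported here.

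Alternatives were quantile scaling, the percentile over detected probes, normexp (on the median spot signal, with backgrounds flagged as non-uniform set to the array's median background), the authors' table, no floor, no or a stricter filter, flags kept, a replicate block, a trended variance, the methods' t-test, other probe rules and each array left out.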

Additional observations from a re-analysis of the deposited data

How the results depend on the processing

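The median difference of the 5 tested erythroid genes (0.39) stayed above 0 under every alternative run and lay between 0.13 and 0.65 with 1 array left out. Hba-a1, Hbb-bt, Alas2 and Slc4a1 stayed above 0 under all 13 alternatives, and Hba-a2 under 12, the exception being the fit without wild-type replicate 2 (-0.02). Several of these alternatives could not turn a sign. The median of the 5 genes was 0.39, as in the main fit, with no floor, either change of filter, flags kept, a replicate block or a trended variance. Slc4a1 differed by 0.30 under quantile scaling and by 0.02 under normexp. Gata1 ranged from -6.35 to -4.82 with 1 array left out and was -4.11 under normexp. The median of the pathway lists lay between 0 and 0.08 with 1 array left out, and their split was 24 higher and 24 lower without S1pr2-/- replicate 1 and 33 and 16 under quantile scaling.

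Of all tested probes, 172 were past 2-fold lower and 29 higher at an unadjusted p under 0.05 from limma. Scaling to the percentile of detected probes gave 79 lower and 14 higher, and the methods' t-test 57 lower and 15 higher. There were 78 higher and 233 lower with the authors' table, 77 higher and 234 lower with no floor, and 95 lower with no filter. With 1 array left out there were 85 (without S1pr2-/- replicate 2) to 343 (without wild-type replicate 2) lower and 34 to 105 (without S1pr2-/- replicate 1) higher. The count at an adjusted p under 0.05 was 0, and 2 under normexp (Fbp1 and S1pr2). With the replicate number as a block, which does not pair the samples, 151 were lower and 34 higher, 0 at an adjusted p under 0.05, and the Gata1 difference was -5.58. Every left-out fit assumes that the lone array varied like the others.

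Signs that turned belonged to differences no wider than that of Krt79 (-0.45) in the main fit. Among them were also those of Hbb-bs (0.40), Pf4 (0.38) and Ltf (0.36). The cause was not tested. With 1 array left out, the range was -0.13 to 0.216 for Hbq1b, -0.0072 to 0.81 for Hbb-bs, -0.341 to 0.28 for Icam4, -0.63 to 0.021 for Car2, -0.364 to 0.308 for Hmox1, -0.092 to 0.121 for Zfpm1, -0.0517 to 0.123 for Bnip3l, -0.023 to 0.774 for Pf4, -0.27 to 0.991 for Ltf and -0.972 to 0.076 for Krt79. Icam4 was also 0.0888 under quantile scaling and Hbq1b -0.024 under normexp.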

Other observations

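Alveolar macrophage markers, the bulk of the expected cells, were tested for 10 of 11 genes, 4 higher and 6 lower on the arrays labelled S1pr2-/-, with a median of -0.03. Fabp4, a lipid-binding protein of these cells, had the widest difference at 0.58 (limma adjusted p = 0.534) and Krt79 the lowest at -0.45 (limma adjusted p = 0.726). The median of this list is nearer to 0 than that of the erythroid genes, and the difference between the lists was not tested.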
